A study of Danio rerio with 30 samples.

Results

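The genes described here are apoeb, apoc1, apoa1b and apoa2, which encode apolipoproteins that the zebrafish embryo makes in its yolk syncytial layer. They were chosen as the rows of the expression tables that carry those 4 names, and they are 4 of the 35117 genes listed in each table. RNA was sequenced from whole wild-type zebrafish embryos, collected in sets of 25 and kept at 28 °C. Untreated embryos gave 1 library of each of 2 kinds at every hour from 0 to 8 h post-fertilization (hpf). The Ribo-Zero libraries, 9 in all, hold total RNA after removal of ribosomal RNA, and the other 9 were poly(A)-selected. The treated embryos had received alpha-amanitin, which blocks RNA polymerases II and III, as a 1 nl injection of a 200 ng/μl solution into the single cell, and gave 12 poly(A)-selected libraries at half-hourly steps between 2 and 7.5 hpf. Each condition is 1 library, so the hours within a window stand in for replicates. Levels are TPM values, which are corrected for transcript length and have one fixed sum per library, so a level is a share of its library. The embryos were sequenced whole, so the yolk syncytial layer is not separated from the blastoderm, and fewer cells of a type cannot be told apart from less RNA per cell.

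Apolipoproteins are the protein part of lipoprotein particles, which carry triglyceride, cholesterol and phospholipid through body fluids. In the fish embryo the yolk syncytial layer, a multinucleate sheet between the yolk and the blastoderm, takes up yolk lipid and packages it into such particles. This layer forms when the marginal blastomeres collapse into the yolk cell, around the time the zygotic genome becomes active. Microsomal triglyceride transfer protein loads lipid onto the particle core, and the smaller exchangeable apolipoproteins, to which the 4 genes belong, sit on its surface. apoeb is one of 2 zebrafish counterparts of mammalian apolipoprotein E, a ligand of the low-density lipoprotein receptor family. apoc1 encodes apolipoprotein C-I, which in mammals restrains lipid uptake and lipase activity. apoa1b encodes a form of apolipoprotein A-I, the main protein of high-density lipoprotein and the cofactor of lecithin-cholesterol acyltransferase, and apoa2 encodes apolipoprotein A-II, another high-density lipoprotein protein.

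The identity of the 30 libraries was checked once. The number of genes at 1 TPM or more ranged from 11919 to 16194, and none of 72 cytoplasmic ribosomal protein genes was listed at 0 in any library. Read numbers are not given in the sources used here, and the counting error of a level is therefore unknown. Of the 16 regulators and markers of the yolk syncytial layer on the list used here, 14 passed the filter on low levels described with the rise, and 12 rose in untreated embryos in each library kind, where 22.1% of all genes tested rose in Ribo-Zero and 30.1% in poly(A) RNA. At least 13 of the 16 were under 1 TPM at 0 to 3 hpf, so most passed only through late libraries. slc40a1 and rbp4, which did not pass, stayed at or below 1.21 and 0.57 TPM in untreated embryos. Whether the RNA of the listed genes came from the layer was not tested. mxtx2, a homeobox regulator of the layer, was at 0.84, 78.8 and 136 TPM at 3, 4 and 5 hpf in poly(A) RNA, and at 0.80 TPM at 8 hpf. hnf4a, a nuclear receptor that controls lipid genes in liver and gut, stood at 0.39 TPM at 4 hpf and 58.8 at 6 hpf in the same libraries. Neither exceeded 0.18 TPM in any library of the alpha-amanitin embryos. In the alpha-amanitin fit given below 13 of the list were tested. Of these 10 were lower, against 21.8% of all genes, and 3 were not called. At 5 hpf and later 12 of the 16 were under 1 TPM in treated libraries, so most passed only through untreated ones. ctsla, the most abundant of the list, was at 2953 TPM at 0 hpf in poly(A) RNA and at 1533 to 2940 TPM in treated libraries.

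apoeb was the most abundant of the 4 from 3 hpf on, and none of the others had an earlier onset by the rule given below. In Ribo-Zero RNA its level was 0.54, 0.32, 0.17 and 0.44 TPM at 0, 1, 2 and 3 hpf, and from 4 to 8 hpf it was 97.9, 354, 1134, 2207 and 2352 TPM. In poly(A) RNA the same hours gave 0.72, 0.40, 0.51 and 0.90 TPM, then 191, 911, 2882, 4401 and 4819.8 TPM. Every library from 4 hpf on lay above every earlier one, in both kinds. By level it was the 793rd gene of the poly(A) library at 4 hpf and the 24th at 8 hpf, and the 1255th and 55th gene of the Ribo-Zero libraries at those hours. The fold step became smaller with each hour after 4 hpf. From 7 to 8 hpf the level differed by a factor of 1.07 in Ribo-Zero and 1.1 in poly(A) RNA, and with 1 library an hour the error of such a step is unknown.

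apoc1 stood below apoeb at every hour from 3 hpf on. Its poly(A) level was listed at 0 at 0 and 2 hpf, was 0.12 TPM at 1 hpf and 0.21 at 3 hpf, and then stood at 11.3, 84.1, 1281, 2241 and 2904 TPM from 4 to 8 hpf. In Ribo-Zero RNA it was 1.77, 0.73, 1.1 and 0.28 TPM at 0 to 3 hpf, and 6.23, 27.7, 347, 801 and 882 TPM from 4 to 8 hpf. The early trace in total RNA at 0 to 2 hpf was thus above all poly(A) values of those hours, although all of these values were below 2 TPM. No ratio is given for the step from 3 to 4 hpf, which started near 0, and among the later steps the largest fell between 5 and 6 hpf, where the level was 12.5 times higher in Ribo-Zero and 15.2 times higher in poly(A) RNA. The same step was 3.21 and 3.16 times for apoeb. At 8 hpf apoc1 was the 45th gene by level in the poly(A) library.

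apoa1b appeared later. It was listed at 0 in the Ribo-Zero libraries at 0 to 3 hpf and at 5 hpf, with 0.13 TPM at 4 hpf, and then reached 4.28, 91.6 and 262 TPM at 6, 7 and 8 hpf. The poly(A) libraries gave 0.07 TPM at 3 hpf and 0.21, 16.3, 207 and 596 TPM from 5 to 8 hpf, with the other hours listed at 0. This gene was still climbing when the series ended, since its level at 8 hpf was 2.86 times that at 7 hpf in Ribo-Zero RNA and 2.87 times in poly(A) RNA.

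apoa2 was the least abundant. It was listed at 0 in all Ribo-Zero libraries up to 4 hpf and then stood at 0.06, 0.65, 2.97 and 5.34 TPM from 5 to 8 hpf. In poly(A) RNA it was listed at 0 up to 5 hpf and was 2.42, 7.24 and 18.6 TPM from 6 to 8 hpf. The order of levels from 6 hpf on was apoeb, apoc1, apoa1b and apoa2 in both library kinds.

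**Figure D1:**
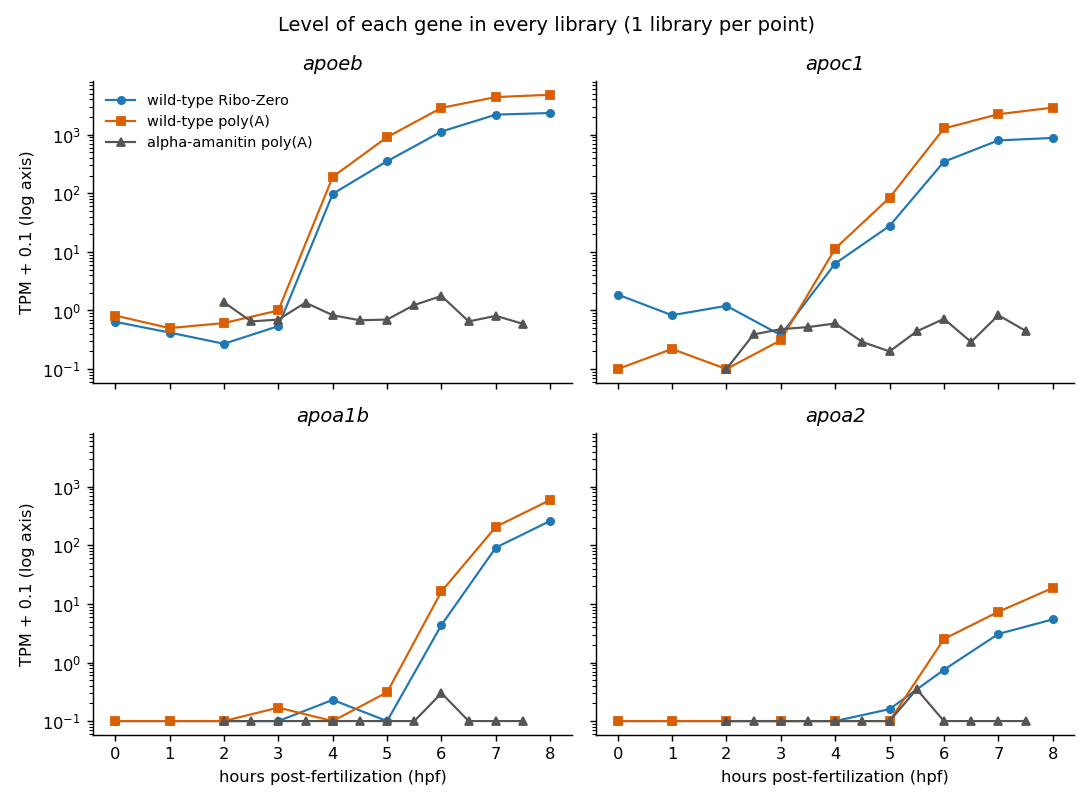
TPM + 0.1 on a log axis against hours post-fertilization for each of the 4 genes, with 1 point per library in untreated Ribo-Zero (circles), untreated poly(A) (squares) and alpha-amanitin poly(A) libraries (triangles). apoeb and apoc1 leave their early level at 4 hpf and apoa1b and apoa2 at 6 hpf in poly(A) RNA, while no alpha-amanitin library exceeds 1.67 TPM for any of them.

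The onset of each gene was taken as the first hour from which the level stayed at or above 4 times the highest level at 0 to 2 hpf and at or above 1 TPM. In poly(A) RNA the onset was 4 hpf for apoeb and apoc1 and 6 hpf for apoa1b and apoa2. In Ribo-Zero RNA it was 4 hpf for apoeb, 5 hpf for apoc1, 6 hpf for apoa1b and 7 hpf for apoa2. The poly(A) onsets were thus tied within 2 pairs and the Ribo-Zero onsets differed for all 4 genes. The onset of apoc1 in Ribo-Zero RNA moved to 4 hpf when 2 times the early level was asked for, because its early level there was not 0. Among all genes, 604 had their onset at 4 hpf and 713 at 6 hpf in Ribo-Zero RNA, and 1089 and 864 in poly(A) RNA. An onset hour is bounded by hourly sampling and is a description without a test.

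From 4 to 8 hpf the makeup of the group changed, mostly between apoeb and apoc1. The 4 genes together took 0.0104% of the Ribo-Zero library at 4 hpf and 0.35% at 8 hpf, and 0.0203% and 0.834% of the poly(A) library. apoeb made up 94.4%, 68.9% and 57.8% of that sum in poly(A) RNA at 4, 6 and 8 hpf. apoc1 made up 5.58%, 30.6% and 34.8% at those hours. apoa1b reached 7.15% at 8 hpf and apoa2 0.223%. In Ribo-Zero RNA at 8 hpf the shares were 67.2% for apoeb, 25.2% for apoc1, 7.47% for apoa1b and 0.153% for apoa2.

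**Figure D2:**
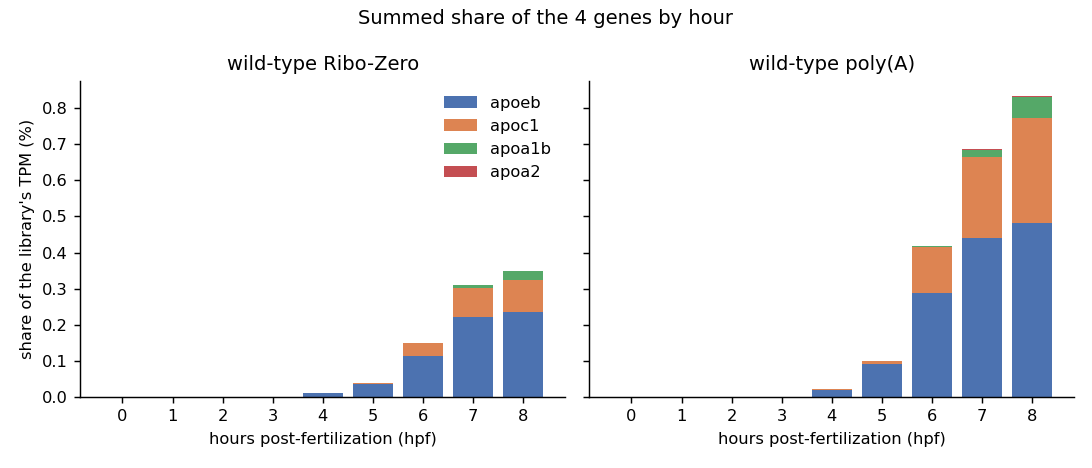
Stacked bars of the percentage of each library's TPM taken by apoeb, apoc1, apoa1b and apoa2 at each hour, for untreated Ribo-Zero (left) and poly(A) libraries (right). The full bar is 0.35% in Ribo-Zero and 0.834% in poly(A) RNA at 8 hpf, and apoeb is the largest segment from 4 hpf on.

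The size of the rise was measured as the mean of log2(TPM + 0.1) at 5 to 8 hpf minus that at 0 to 3 hpf, 4 libraries against 4, with limma over all genes whose mean level was at least 1 TPM. In Ribo-Zero RNA all 4 genes rose, against 22.1% of the 15769 genes tested. In poly(A) RNA all 4 rose as well, against 30.1% of 15932 genes. Each of the 4 passed the filter only through its late libraries, so the count itself supports nothing.

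For apoeb the Ribo-Zero mean went from -1.17 ± 0.54 to 10.23 ± 1.27 (SD, n = 4 hours each), a difference of 11.40 ± 0.59 (SE, limma adjusted p = 2.03e-06) that 3 genes exceeded. Its poly(A) difference was 11.92 ± 0.55 (limma adjusted p = 1.85e-07). For apoc1 the difference was 8.29 ± 1.05 in Ribo-Zero RNA (limma adjusted p = 0.000208) and 12.47 ± 1.00 in poly(A) RNA (limma adjusted p = 2.81e-06). Among the genes of the poly(A) test, 5 exceeded apoc1 and 9 exceeded apoeb. For apoa1b and apoa2 the 5 hpf library was still at or near 0. The apoa1b difference was 6.66 ± 2.13 in Ribo-Zero RNA (limma adjusted p = 0.018), where its 5 hpf library overlapped the early ones at 0, and 7.95 ± 1.85 in poly(A) RNA (limma adjusted p = 0.00456). Without the 7 hpf library the Ribo-Zero value of apoa1b was 5.60 and missed the threshold (limma adjusted p = 0.0511). The apoa2 difference was 3.57 ± 1.00 in Ribo-Zero RNA (limma adjusted p = 0.0102) and 4.60 ± 1.29 in poly(A) RNA (limma adjusted p = 0.0124), where the 5 hpf library was again listed at 0 like the early ones. Without 7 or 8 hpf apoa2 was below the filter in Ribo-Zero RNA and gave no value there. The differences of apoa1b and apoa2, and that of apoc1 in poly(A) RNA, start from libraries listed at 0, so their size depends on the 0.1 TPM added before the logarithm. The other differences start from low levels and depend on it as well. With 1 TPM added they were 9.79 in Ribo-Zero and 10.72 in poly(A) RNA for apoeb, and 7.26 in Ribo-Zero RNA for apoc1. The median over all genes tested was -0.92 in Ribo-Zero and 0.15 in poly(A) RNA, and scaling the libraries by the median of ratios moved it to -0.02 and 0.31.

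The rise was then compared between library kinds in one fit of 16 libraries, in which 14.2% of 15982 genes differed. This fit had no term for the hour, although both kinds share each hour. The climb within the late window therefore counts as error and widens the intervals. For none of the 4 genes did the rises differ past the threshold. The excess of poly(A) over Ribo-Zero RNA was 4.18 ± 1.55 for apoc1 (95% interval 0.89 to 7.46, limma adjusted p = 0.0809). It was 0.52 for apoeb (95% interval -1.25 to 2.28), 1.28 for apoa1b (-5.16 to 7.73) and 1.03 for apoa2 (-2.73 to 4.79). In this fit differences of several log2 units remain possible for the later genes, and a difference in rise paired by hour was not tested. The value for apoc1 passed the threshold in 3 alternatives, among them the narrower windows of 0 to 2 and 6 to 8 hpf (4.94, limma adjusted p = 0.000769) and the fit without 5 hpf (4.20, limma adjusted p = 0.00481). All other alternatives missed it. With 1 TPM added in place of 0.1 the value was 2.48 (limma adjusted p = 0.253), and under median-of-ratios scaling 3.27 (limma adjusted p = 0.245). Its early poly(A) level was listed at 0 at 0 and 2 hpf, so its size depends on the TPM added.

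Levels in the 2 library kinds were compared at the same hours, 5 to 8 hpf, with the hour as a factor. apoeb, apoc1 and apoa1b were higher in poly(A) RNA, as were 46.6% of the 15882 genes tested, and the median gene was higher by 0.47 on the log2 scale. The log2 difference was 1.19 ± 0.13 for apoeb (limma adjusted p = 0.000314), 1.67 ± 0.12 for apoc1 (limma adjusted p = 6.21e-05) and 1.48 ± 0.16 for apoa1b (limma adjusted p = 0.000352). Each was higher at 4 of 4 hours. For apoa2 the difference was 1.03 ± 0.43 (limma adjusted p = 0.0798), with poly(A) RNA higher at 3 of 4 hours. Without the 5 hpf pair, in which apoa2 was at 0.06 TPM or listed at 0, its difference was 1.60 and passed the threshold (limma adjusted p = 0.000981). Median-of-ratios scaling took the median gene to -0.03 and the 3 called genes to 0.66, 1.15 and 1.01.

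The excess of apoc1 was larger than that of apoeb at each hour from 5 hpf on, a difference between the genes that was not tested. At 8 hpf apoc1 was 3.29 times higher in poly(A) than in Ribo-Zero RNA, apoa2 3.49 times, apoa1b 2.28 times and apoeb 2.05 times. At that hour 78.1% of all genes compared had a smaller log2 difference than apoeb, and 95.2% a smaller one than apoc1. At 4 hpf both were close, with 1.95 times for apoeb and 1.81 times for apoc1.

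**Figure D3:**
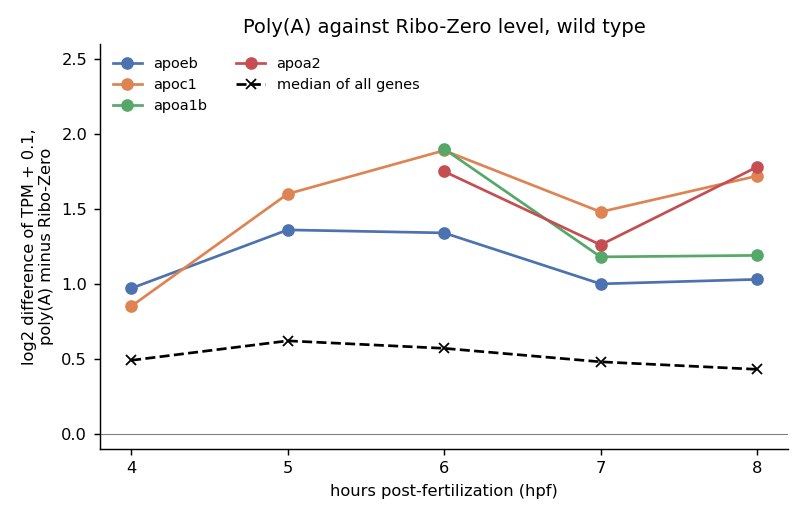
Log2 difference of TPM + 0.1 between untreated poly(A) and Ribo-Zero libraries against hours post-fertilization, with 1 point per pair of libraries, from 4 hpf for apoeb and apoc1 and from 6 hpf for apoa1b and apoa2. The dashed line is the median over all genes with a mean of at least 1 TPM in the pair, which stays between 0.43 and 0.62 and below all points of the 4 genes.

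The alpha-amanitin libraries ask whether these transcripts appear without zygotic transcription. apoeb was detected at a low level in all 12 of them, from 0.49 to 1.67 TPM with a median of 0.655. That range overlaps the 0.40 to 0.90 TPM of untreated poly(A) libraries at 0 to 3 hpf. apoc1 was listed at 0 in 1 of the 12, at 2 hpf, and otherwise lay at up to 0.73 TPM. apoa1b was listed at 0 in 11 of the 12 and at 0.20 TPM at 6 hpf, and apoa2 in 11 of the 12 and at 0.25 TPM at 5.5 hpf. None of the 4 had an onset in this profile by the rule above with 2 and 2.5 hpf as the early hours, which 250 genes met. Of those genes 161 met it only at 7.5 hpf, the last library. Together they never took more than 0.000249% of a library.

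At matched hours the gap widened. The level of apoeb in untreated embryos was 262, 1520, 1730 and 6200 times that in alpha-amanitin embryos at 4, 5, 6 and 7 hpf. For apoc1 the same ratios were 22.6, 841, 2070 and 3070. These ratios rest on levels under 2 TPM in the treated libraries. For apoa1b at 7 hpf, 207 TPM stood against a library listed at 0.

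In the fit of 4 to 7 hpf, 4 libraries against 4 with the hour as a number, apoeb, apoc1 and apoa1b were lower in alpha-amanitin embryos, as were 21.8% of the 16028 genes tested. This fit gave both treatments the same slope over hours, so its errors also take in any difference in slope. All 4 passed the filter only through the untreated libraries, so the count itself supports nothing. The untreated mean of apoeb was 10.25 ± 2.02 and the alpha-amanitin mean -0.07 ± 0.60 (SD, n = 4 hours each), a difference of -10.32 ± 0.65 (SE, limma adjusted p = 1.99e-05), and 14 genes had a lower value. The difference of apoc1 was -8.79 ± 1.04 (limma adjusted p = 0.000468), with untreated and treated libraries not overlapping. For apoa1b it was -4.61 ± 1.57 (limma adjusted p = 0.0419), with overlap at 4 hpf, and this call was lost with a pseudocount of 1, without the filter, with the hour as a factor, and without 5, 6 or 7 hpf (limma adjusted p from 0.0534 to 0.229). For apoa2 it was -2.71 ± 1.18 (limma adjusted p = 0.0817), and it passed the threshold when 4 hpf, at which both treatments were listed at 0, was left out (-3.62, limma adjusted p = 0.0284). It missed the threshold without 5 hpf, at which both were also listed at 0 (-3.62, limma adjusted p = 0.086), and without 6 hpf (-2.07, limma adjusted p = 0.387). Without 7 hpf apoa2 was below the filter and gave no value. The median gene was 0.40 higher in alpha-amanitin embryos, a shift that median-of-ratios scaling took to -0.08. It left the values of the 4 genes between -10.77 and -3.01.

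**Figure D4:**
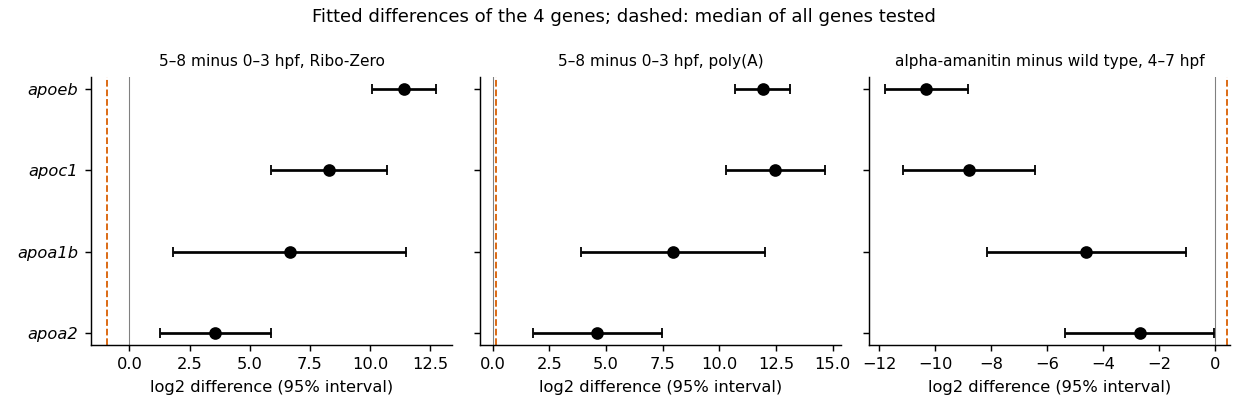
Fitted log2 differences of apoeb, apoc1, apoa1b and apoa2 with 95% intervals (points and bars) for the late minus early windows in Ribo-Zero and poly(A) RNA and for alpha-amanitin minus untreated embryos at 4 to 7 hpf. The dashed lines mark the median of all genes tested, -0.92, 0.15 and 0.40, and the interval of apoa2 under alpha-amanitin, -5.38 to -0.05, comes closest to 0.

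The time courses themselves also differed between treatments. From 2 to 7 hpf the slope of log2(TPM + 0.1) in untreated embryos was 2.88 per hour for apoeb, 3.18 for apoc1, 2.19 for apoa1b and 1.28 for apoa2. In alpha-amanitin embryos the slopes were 0.00, 0.44, 0.14 and 0.00. Of the 3 genes that passed the filter, all had a lower slope under alpha-amanitin, as did 23.1% of the 15782 genes tested, and since they passed only through untreated libraries this count supports nothing by itself. The slope difference was -2.88 ± 0.42 for apoeb (limma adjusted p = 0.000532), -2.74 ± 0.31 for apoc1 (limma adjusted p = 0.000307) and -2.05 ± 0.52 for apoa1b (limma adjusted p = 0.00619). Without 7 hpf the value of apoa1b was -1.24 and missed the threshold (limma adjusted p = 0.164). apoa2 had a mean of 0.805 TPM over these libraries and was below the filter, and the fit without a filter gave -1.28 ± 0.35 (limma adjusted p = 0.014). That value rests on 2.42 and 7.24 TPM at 6 and 7 hpf in untreated embryos. In the remaining libraries of the fit apoa2 was listed at 0, and no alternative was run for it. Over all 12 alpha-amanitin libraries all 4 genes were below the filter. Without it, the slopes of ln(TPM + 0.1) lay between -0.04 and 0.14 per hour, none past the threshold (limma adjusted p from 0.246 to 0.775). In that fit without a filter 9177 of 25206 genes changed with time, and in the fit with the filter 61.2% of genes did.

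Other genes of yolk lipid transport were read beside the 4. Of 19 other apolipoprotein genes, 9 passed the filter in poly(A) RNA, where 7 rose and none fell, against 30.1% of all genes that rose. In Ribo-Zero RNA 7 passed, of which 6 rose and 1 fell, against 22.1% and 57.2% of all genes. Of the 19, 17 were under 1 TPM in each profile at 0 to 3 hpf, so most passed only through late libraries. afp4, an apolipoprotein A-IV-like gene, has 2 rows in the tables, at 1191 and 373 TPM in poly(A) RNA at 8 hpf, and apoa1a, the paralog of apoa1b, was at 487 TPM. Where such copies or paralogs share reads, RSEM divides them by estimate, and whether they do here was not tested, so single rows are uncertain. apoa1a and apoa1b appeared at the same hours, with 30.1 and 16.3 TPM at 6 hpf and 213 and 207 TPM at 7 hpf. apoea, the other counterpart of apolipoprotein E, stayed at or below 0.12 TPM. mtp, which encodes microsomal triglyceride transfer protein, was at 21.4, 119, 162 and 106 TPM from 5 to 8 hpf in poly(A) RNA, later than apoeb and earlier than apoa1b.

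Of 18 genes of lipoprotein assembly and remodelling, 12 passed the filter in poly(A) RNA, of which 6 rose and 1 fell, against 30.1% and 20.3% of all genes. In Ribo-Zero RNA 12 passed, of which 6 rose and 4 fell, against 22.1% and 57.2%. Of the 18, 12 were under 1 TPM in each profile at 0 to 3 hpf, and any of these that passed did so only through late libraries. abca1b, a transporter that loads lipid onto apolipoprotein A-I in mammals, rose by 6.92 ± 0.73 on the log2 scale in poly(A) RNA (limma adjusted p = 1.86e-05). It started there from 0.02 to 0.14 TPM at 0 to 3 hpf. Of 16 receptor and uptake genes none rose in either library kind, 2 of 10 tested fell in poly(A) RNA, about the share of all genes, and 10 of 11 fell in Ribo-Zero RNA, in which 57.2% fell. scarb1, a receptor for high-density lipoprotein, went from 203 TPM at 0 hpf to 21.2 at 8 hpf in Ribo-Zero RNA. Of 10 carriers of fatty acids in the cell, 3 passed the filter in Ribo-Zero RNA, of which 1 rose and 1 fell, against 22.1% and 57.2% of all genes. In poly(A) RNA 5 passed, of which 2 rose and none fell, against 30.1% and 20.3% of all genes. Of the 10, 8 in Ribo-Zero and 6 in poly(A) RNA were under 1 TPM at 0 to 3 hpf. Any of these that passed did so only through late libraries. The most abundant of the 10, fabp3, fell by 1.17 on the log2 scale in Ribo-Zero RNA (limma adjusted p = 0.00452), where the median of all genes was -0.92. Its mean poly(A) level was 54.9 TPM at 0 to 3 hpf and 83.3 TPM at 5 to 8 hpf. fabp1b.1, a liver-type fatty acid binding protein, was at 3.85, 27.5 and 97.7 TPM at 6, 7 and 8 hpf in poly(A) RNA.

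Marker genes of other tissues moved over the same hours. The summed level of 11 enveloping layer markers was 1.43 to 5.61 TPM in poly(A) libraries at 0 to 3 hpf and 1809 to 10630 TPM at 5 to 8 hpf, and all 11 rose. The sum of 6 genes listed here as endoderm markers went from between 0.72 and 1.57 TPM to between 219 and 683 TPM. Of these genes 5 of 5 tested rose, against 30.1% of all genes. At 8 hpf cdx4 alone was at 442 TPM in poly(A) RNA, and whether its RNA came from endoderm was not tested. Of both lists 10 of 11 and 5 of 6 genes were under 1 TPM at 0 to 3 hpf, and those of them that were tested passed only through late libraries. foxa1, of the endoderm list, stayed at or below 0.44 TPM in untreated embryos and was not tested. Under alpha-amanitin at 5 hpf and later these sums were at most 11.8 and 0.74 TPM. The part of these tissues in the levels of the 4 genes was not tested. The 15 adult liver and yolk protein genes summed to at most 14.9 TPM in any untreated late library, nearly all of it serpina1, and vtg2, vtg4, vtg5 and vtg6 were listed at 0 in all 30 libraries. Of 8 blood genes none passed the filter in either untreated profile, and their sum stayed at or below 4.47 TPM in untreated embryos at 0 to 3 and 5 to 8 hpf.

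Some of the 4 genes are neighbours in the genome. In the order of the RefSeq annotation of assembly GRCz12tu, apoeb is followed by apoc1, a long non-coding RNA, apoc4, apoa2 and apoc2, and preceded by apoa4b.2, while apoa1b lies elsewhere. Levels differed widely along this stretch, and apoeb and apoc1 both stood above the rest at 8 hpf. Some adjacent genes were alike at a low level, such as apoa4b.3 and si:dkey-7f3.14, both at 0.10 TPM in poly(A) RNA at that hour. In poly(A) RNA at 8 hpf apoeb was at 4819.8 TPM, apoc1 at 2904, apoc4 at 0.33, apoa2 at 18.6, apoc2 at 123 and apoa4b.2 at 10.4. Hours of appearance differed as well, since apoa4b.2 was at 2.01 TPM at 4 hpf when apoc2, an activator of lipoprotein lipase, was at 0.10 and apoa2 was listed at 0. apoc2 was at 96.4, 143 and 123 TPM at 6, 7 and 8 hpf. These neighbours were looked up after the levels of the 4 genes had been seen.

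**Figure D5:**
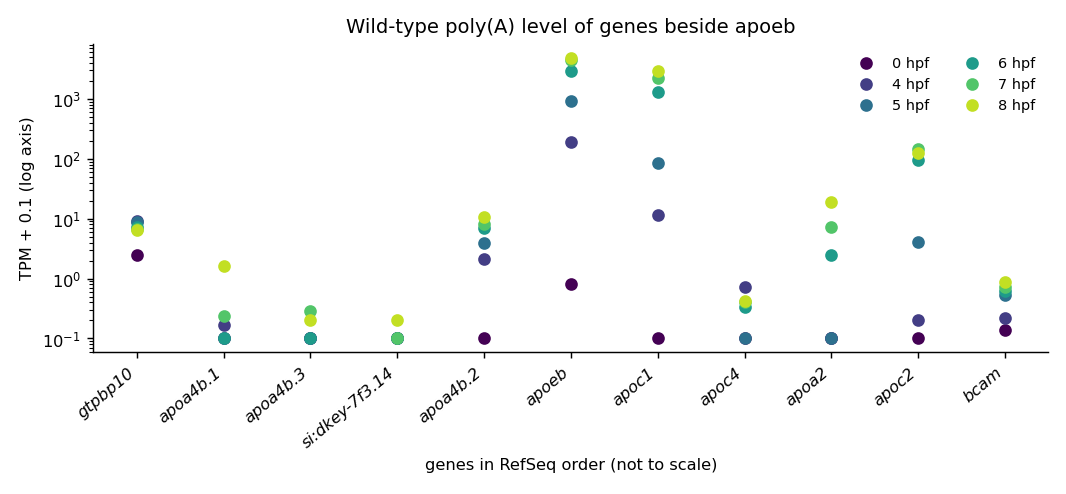
TPM + 0.1 on a log axis in untreated poly(A) libraries at 0, 4, 5, 6, 7 and 8 hpf (colours) for apoeb and 10 genes beside it, in RefSeq order and not to scale. Points at the bottom are listed at 0, and apoeb and apoc1 stand above their neighbours at 8 hpf, at 4819.8 and 2904 TPM.

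The patterns of the 4 genes were compared over all 30 libraries. Pearson's r of log2(TPM + 0.1) was 0.956 between apoeb and apoc1 and 0.975 between apoa1b and apoa2. Across these pairs it was 0.888 for apoc1 with apoa1b, 0.868 for apoc1 with apoa2, 0.825 for apoeb with apoa1b and 0.798 for apoeb with apoa2. These are descriptions over libraries that share their hours, treatment and scaling. Among 12939 genes with at least 10 TPM in some library, the genes most like apoeb were BX927258.1, CR855389.1 and CR388179.1, each with an r of 0.994. Those most like apoc1 were mapk11, BX890558.1 and mgll, each at 0.981, where mgll encodes monoglyceride lipase. The genes most like apoa1b were CABZ01060491.2 at 0.994, si:ch211-158d24.4 at 0.993 and fabp1b.1 at 0.992, and those most like apoa2 were igf3 at 0.987, fabp1b.1 at 0.983 and agr1 at 0.982. Closest to the mean of the 4 were lhx5, prdm14, zgc:100868, sp5l and tbx6l, with an r from 0.991 to 0.992. With 1 TPM added in place of 0.1, none of the 5 genes closest to the mean was still among its first 5. Of the 3 genes named for each, 0 were kept for apoeb, apoa1b and apoa2 and 1 for apoc1. Which genes such lists name is therefore loose.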

How the data were processed

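Per the labels and the study's methods, reads were converted with bcl2fastq 2.18, aligned with STAR 2.7.3a to danRer11 and quantified with RSEM, and the authors deposited TPM values rounded to 2 decimals in 3 tables. No counts were used, and sequencing depth was not given in the sources used here. Every column was mapped to a library by its label. Here log2(TPM + 0.1), or ln for slopes within alpha-amanitin embryos, was fitted with limma 3.58.1 (R 4.3.3; moderated with a trend, two-sided, Benjamini-Hochberg over all genes with a mean of at least 1 TPM over the libraries of the fit, threshold 0.05). Errors are the scatter between hours, which are not replicates. Fits were also run on simulated data with known changes. The simulated noise was independent between libraries, so these runs cannot show error rates where the scatter is a trend over hours. Figures used Python 3.11.15 with matplotlib 3.10.9. Of 122 list symbols 121 were matched, by name or through the gene name table. Named genes were the 4 genes, up to 5 genes a list with the highest untreated level at 5 to 8 hpf, mxtx2, hnf4a, and the genes closest in pattern. apoea, foxa1, slc40a1, rbp4 and the vitellogenin genes were named after their values were seen. The 4 genes and the lists were chosen with earlier results of these data known. Alternatives were other pseudocounts, no filter, median-of-ratios scaling, other windows and hours, and leaving out each hour in turn. The genes beside apoeb were added after seeing the data. No sequences were used, and start coordinates served only to put the genes in RefSeq order.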

Additional observations from a re-analysis of the deposited data

Results flagged for a closer look

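The slope over 2 to 7 hpf differed between alpha-amanitin and untreated embryos for apoeb, apoc1 and apoa1b, by the test of the difference itself (limma, 6 libraries against 6). apoa2 was below the filter on low values. It differed only in the fit without that filter, for which no hour was left out in turn. On the log2 scale per hour the difference was -2.88 for apoeb, -2.74 for apoc1 and -2.05 for apoa1b, and -1.28 for apoa2 in the fit without a filter on low values. Among the 15782 genes above the filter, 23.1% had a lower slope under alpha-amanitin. apoeb, apoc1 and apoa1b passed it only through untreated libraries, so the count supports nothing by itself. Without 7 hpf the value of apoa1b was -1.24 and missed the threshold (limma adjusted p = 0.164). Since each condition is 1 library, no library could be set against others of its own condition.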

How the results depend on the processing

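The rises of apoeb, apoc1 and apoa2, the alpha-amanitin effects on apoeb and apoc1 and the poly(A) excess of apoeb, apoc1 and apoa1b stayed past the threshold in the same direction under every alternative that gave them a value (0 to 3 hpf gave none for the poly(A) excess, and the Ribo-Zero rise of apoa2 had none without 7 or 8 hpf, where it was below the filter). The alpha-amanitin effect on apoa1b lost its call with a pseudocount of 1 (-2.96), without a filter (-4.61) and with the hour as a factor (-4.61), and ranged from -6.14 to -2.47 when 1 hour was left out. That on apoa2 was called at 5 to 7 hpf (-3.62) and ranged from -3.62 to -2.07. It had no value without 7 hpf, where apoa2 was below the filter. Leaving out 1 hour gave -2.63 to -1.24 for the slope difference of apoa1b, 5.10 to 8.88 for its Ribo-Zero rise and 0.78 to 1.60 for the poly(A) excess of apoa2, which a pseudocount of 1 took past the threshold (0.91). The difference in rise of apoc1 was called with a pseudocount of 0.01 (5.97) and without 5 hpf (4.20). Windows of 0 to 2 and 6 to 8 hpf also called it (4.94). It was not called with a pseudocount of 1 (2.48), under median-of-ratios scaling (3.27) or in any other alternative. Over left-out hours it ranged from 3.6 to 4.91. That of apoeb, not called in any fit, turned to -0.33 under median-of-ratios scaling. The cause of these changes was not tested. Counts of genes called moved more. The alpha-amanitin effect had 7306 calls, 2730 with the hour as a factor and 1299 to 10145 without 1 hour. The slope difference had 8279, and 4339 to 8615 without 1 hour. The difference in rise had 2276, 883 under median-of-ratios scaling, 4487 in the narrower windows and 851 to 3594 without 1 hour. Poly(A) minus Ribo-Zero had 9072, and 4478 at 0 to 3 hpf. Asking for 5 TPM put the Ribo-Zero onset of apoc1 at 4, of apoa1b at 7 and of apoa2 at 8 hpf and the poly(A) onset of apoa2 at 7 hpf, and asking for 2 times the early level put that of apoc1 at 4 hpf in Ribo-Zero RNA. Alpha-amanitin libraries gave no onset under any rule. The labels give no replicate numbers, so libraries were paired by hour only, in the fits with the hour as a factor. With 1 library per hour and unknown depth, the counting error of levels under 1 TPM is unknown.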
